A study of Mus musculus with 62 samples.

Results

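The genes described here are 9 neurotrophin and activity-linked genes of the mouse neocortex: the neurotrophins Bdnf and Ntf3, their receptors Ntrk2 and Ntrk3, the secreted granin family proteins Vgf and Scg2, the pentraxins Nptx1 and Nptx2, and the scaffold gene Homer1. They were taken by symbol from a table of 47643 genes, and all 9 were found. The libraries came from the neocortex of female mice, labelled as aged 2 months, that received melanoma cells causing cachexia, a wasting of muscle and fat (CAC), melanoma cells that do not cause it (NCAC), or a mock injection (Con). Each arm was sampled at 2, 4, 6 and 8 weeks, with 7 libraries for CAC at 8 weeks and 5 for each of the other 11 groups, 62 in all. The age label is the same in every week, and whether it is the age at injection or at sampling was not resolved. The series design gives athymic nude mice as hosts and the sample labels give C57BL6/J, so the strain is unresolved, as is what immune cells the hosts had; which melanoma lines were used, and whether each was a single clone, was not stated. The titles of the 7 CAC libraries at 8 weeks carry the numbers 19, 21, 23, 24, 27, 28 and 30, so this group does not follow a continuous count. The libraries are called biological replicates in the labels, with nothing on cages or litters.

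Neurotrophins are secreted growth factors that neurons use to support each other's survival and to adjust synapses. BDNF binds the receptor kinase TrkB, the product of Ntrk2, and neurotrophin-3 binds mainly TrkC, the product of Ntrk3. Neuronal firing switches on immediate early transcription factors and also effector genes, part of which follow in a later wave. Bdnf, Nptx2, Vgf, Scg2 and a short form of Homer1 are among the effector genes. In these bulk libraries fewer cells of a type and less RNA per cell cannot be told apart, and gene-level values do not separate full-length from truncated TrkB or the short from the long forms of Homer1.

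CREB, a transcription factor that neuronal activity switches on, binds the cAMP response element (CRE), written TGACGTCA, or its shorter parts TGACG and CGTCA. RefSeq promoter windows of GRCm38.p6, covering 250 bases before to 50 bases after a start, were matched by symbol for 5 of the 9 genes (Bdnf, Ntf3, Ntrk2, Scg2 and Homer1), with 13 windows in total, while Ntrk3, Vgf, Nptx1 and Nptx2 had no entry. The 120 bases just before the start are shown for the 3 windows that held any of these letters on either strand, because they carry the sequence difference among the members. Capitals mark the CRE letters, and each stretch reads 5′ to 3′ on the strand of its gene.
Scg2 (chr1:79440027-79440146, minus strand): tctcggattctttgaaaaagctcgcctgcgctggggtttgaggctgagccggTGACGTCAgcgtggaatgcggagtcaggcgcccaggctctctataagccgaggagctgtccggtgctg
Bdnf (chr2:109692316-109692435, plus strand): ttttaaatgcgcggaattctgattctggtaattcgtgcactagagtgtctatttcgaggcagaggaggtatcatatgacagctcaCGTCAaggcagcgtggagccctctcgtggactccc
Homer1 (chr13:93303637-93303756, plus strand): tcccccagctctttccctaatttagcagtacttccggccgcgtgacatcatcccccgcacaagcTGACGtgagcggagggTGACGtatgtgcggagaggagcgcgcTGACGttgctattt
The Scg2 window held the full palindrome, beginning 68 bases before the start, and 1.79% of 32851 windows of this length in the table held it. The Bdnf window, 1 of 7 for that gene, held a single shorter part beginning 35 bases before the start, and 20.8% of all windows held at least 1 shorter part (which every full palindrome also counts as). The Homer1 window, 1 of 2, held 3 copies of the shorter part, beginning 56, 40 and 14 bases before the start, as did 1.03% of windows with 3 or more. The other 6 Bdnf windows, the other Homer1 window, both Ntf3 windows and the Ntrk2 window held none of these letters. Such matches are letters in a window, not measured binding. Among these 3 genes, Bdnf fell in CAC neocortex at 8 weeks, and Scg2 and Homer1 passed the test in no comparison.

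Levels are in TPM, a share of transcripts scaled for transcript length that summed to 1000000 in each library. All 9 genes were measured in all 62 libraries, with no library at 0. Averaged over the 62 libraries, Scg2 was the most abundant at 301 ± 48.4 TPM, followed by Nptx1 at 196 ± 32.4, Ntrk2 at 163 ± 14.9 and Vgf at 157 ± 22.6 TPM (SD). Homer1 stood at 51.3 ± 13.4 TPM, Nptx2 at 35.96 ± 7.36, Ntrk3 at 17.4 ± 2.30, Bdnf at 9.67 ± 2.05 and Ntf3 at 2.07 ± 0.572 TPM. An estimated 884 reads stood behind Bdnf in the median library, 1287 behind Nptx2 and 49 behind Ntf3, whose counting error alone is then 14.3%. Depth was an estimated 44.9 to 50.7 M reads per library. In the GRCm38 gene models of GENCODE vM21, Bdnf lies on the plus strand at chr2:109674700-109727007 and Ntf3 on the minus strand at chr6:126101412-126166910. Ntrk2 lies at chr13:58806569-59133970 (plus) and Ntrk3 at chr7:78175959-78738012 (minus). Vgf lies at chr5:137026392-137033351 (plus) and Scg2 at chr1:79434669-79440120 (minus). Nptx1 lies at chr11:119538719-119547753 (minus), Nptx2 at chr5:144545902-144557478 (plus) and Homer1 at chr13:93299635-93405129 (plus). Values are summed over the whole gene. Exons of the members do not overlap exons of other genes, except for Bdnf and the antisense gene Gm45346 on the opposite strand, and whether counting used strand is not given in the sources used here.

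The tissue label was checked against marker genes. Slc17a7, the vesicular glutamate transporter of cortical excitatory neurons, was at 529 to 1246 TPM in every library. Markers of neighbouring tissue were present in most libraries and varied. Drd1, a receptor of the striatum, ranged over 6.96 to 76.2 TPM (median 48.9), and Ttr, a product of the choroid plexus, over 7.13 to 3049 TPM (median 1045). The group medians of summed striatum markers were 1302 to 1890 TPM. The part of such tissue in the member values was not tested. In 3 libraries a marker list stood far from the rest: Con replicate 5 at 2 weeks had summed thalamus markers of 376 TPM and summed hypothalamus and pituitary markers of 3759 TPM, CAC replicate 1 at 4 weeks had summed striatum markers of 202 TPM, and CAC replicate 3 at 8 weeks had summed erythroid markers of 22530 TPM. A wider set of 8 added Con replicate 3 and NCAC replicate 4 at 2 weeks, and NCAC replicates 1 and 3 at 4 weeks. It also added CAC replicate 5 at 8 weeks, and no cutoff for this set is given here.

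Differences were tested with limma on log2(TPM + 1) over 14494 genes in a single fit of 12 groups, with Benjamini-Hochberg adjusted p-values and a call at an adjusted p under 0.05. A log2 difference on this scale understates the change of low genes such as Ntf3 and Bdnf. In CAC against Con, 2 of the 9 genes were called at 8 weeks (both lower), beside 8.6% of all genes tested. At 2 weeks 1 of 9 was called (higher), beside 4.28% of all genes, and at 4 and 6 weeks 0 of 9 were called, beside 0.0414% and 1.63%, with 0 and 3 of the 9 at an unadjusted p under 0.05. In CAC against NCAC, 1 of 9 was called at 8 weeks (lower), beside 6.02% of all genes, and 1 of 9 at 6 weeks (higher), beside 9.65%. At 2 and 4 weeks 0 of 9 were called in that comparison, beside 0% and 0.0069%, with 1 and 2 of the 9 at an unadjusted p under 0.05. In NCAC against Con, 1 of 9 was called at 2 weeks (higher), beside 8.71% of all genes. At 4, 6 and 8 weeks no member and 0% of all genes were called between these arms, with 1, 1 and 0 members at an unadjusted p under 0.05. The direction of calls over all genes moved with scaling between libraries. In CAC against NCAC at 6 weeks 1167 genes were called higher and 232 lower, and under TMM scaling 282 and 437. At 8 weeks these were 636 and 237, and 391 and 430 under TMM. In CAC against Con they were 174 and 62 at 6 weeks, and 108 and 103 under TMM, and 533 and 87 at 2 weeks, and 551 and 177 under TMM. The called members of these single weeks were the same under TMM. With 9 genes, a count of 1 or 2 beside these shares does not set the group apart from other genes. The median log2 difference of the 9 genes in CAC against Con at 8 weeks was -0.086, against 0.015 over all genes, with 6 negative and 3 positive. The comparisons of CAC with Con and with NCAC share the CAC libraries, and their results are therefore not independent of each other.

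**Figure D1:**
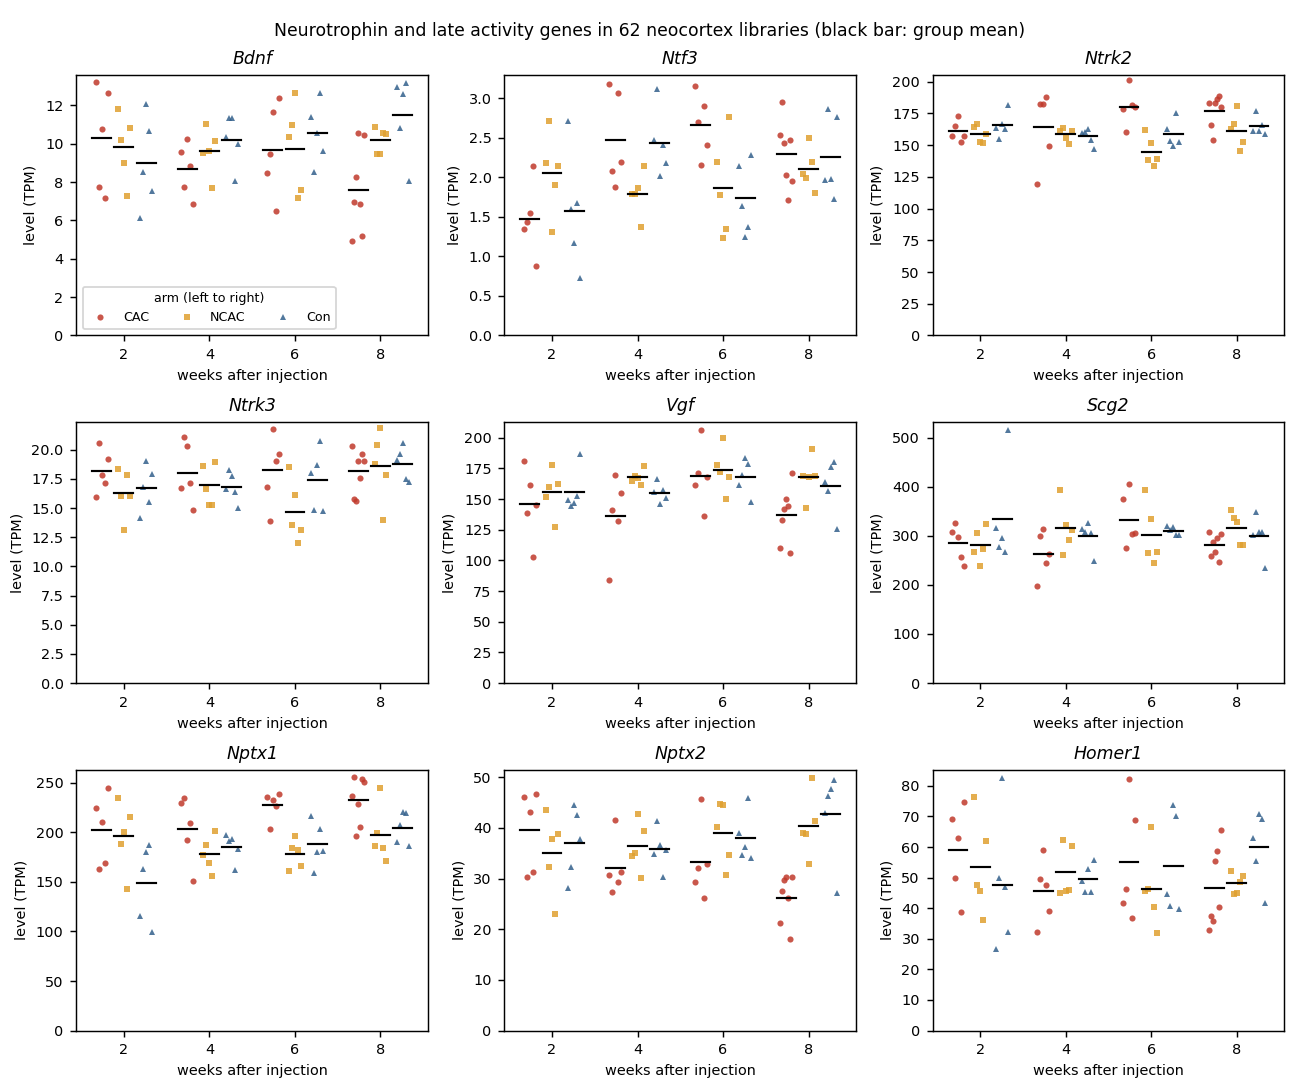
Level of each of the 9 genes in TPM (vertical axes, from 0) in every library, by weeks after injection (horizontal axis), with CAC, NCAC and Con from left to right within each week and the group mean as a black bar. At 8 weeks every CAC library lies below every NCAC library for Nptx2, and at 6 weeks every CAC library lies above every NCAC library for Nptx1.

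Bdnf, the ligand of TrkB, fell in CAC neocortex at 8 weeks. It had 4.91, 6.94 and 10.5 TPM (lowest, median and highest of 7) in CAC libraries, against 10.9, 9.47, 9.45, 10.6 and 10.5 TPM in NCAC libraries and 12.95, 10.8, 12.6, 13.2 and 8.07 TPM in Con libraries. Of the 7 CAC libraries 4 lay below every Con library, and 4 of the 5 Con libraries lay above every CAC library, so the groups overlapped through a single low Con library. The group means were 7.60 ± 2.28 TPM in CAC (SD, n = 7), 10.2 ± 0.665 TPM in NCAC and 11.5 ± 2.14 TPM in Con (n = 5 each). The mean in CAC was 0.659 times that in Con, a log2 difference of -0.57 (SE 0.16, limma adjusted p = 0.0169). Without CAC replicate 1, CAC replicate 6, Con replicate 1 or Con replicate 4 the difference was -0.49, -0.50, -0.52 and -0.52 and the adjusted p was 0.0617, 0.0595, 0.0557 and 0.0551, so the call rests on each of these 4 libraries. In a fit of only the groups compared the adjusted p was 0.0664.

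Against NCAC at 8 weeks the Bdnf difference was -0.42 (95% interval -0.74 to -0.10, limma adjusted p = 0.105) and did not pass the test. It passed with the excitatory neuron marker score (-0.45, adjusted p = 0.0261) or the immediate early gene score (-0.53, adjusted p = 0.0237) as a term. In the earlier weeks Bdnf averaged 10.3 ± 2.76, 8.66 ± 1.37 and 9.69 ± 2.39 TPM in CAC at 2, 4 and 6 weeks, 9.82 ± 1.76, 9.61 ± 1.22 and 9.75 ± 2.32 TPM in NCAC, and 8.996 ± 2.37, 10.2 ± 1.36 and 10.5 ± 1.60 TPM in Con (SD, n = 5 each). These ranges overlapped in every week, with log2 differences of CAC to Con of 0.18, -0.22 and -0.13 and limma adjusted p-values of 0.572, 0.611 and 0.816. The Con group at 8 weeks held the highest Bdnf mean of all 12 groups and the CAC group at 8 weeks the lowest, and no step between neighbours in that order exceeded the SD of the groups beside it.

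Whether the Bdnf deficit at 8 weeks differed from the earlier weeks was tested as a change of the CAC to Con difference. The difference moved by -0.74 between 2 and 8 weeks (SE 0.23, limma adjusted p = 0.0993) and by -0.44 between 6 and 8 weeks (SE 0.23, adjusted p = 1.00), so neither change passed. For the first of these changes 0 of 9 members were called, beside 1.32% of all genes, with 3 members at an unadjusted p under 0.05, and for the second 0 of 9, beside 0%, with 2 members at an unadjusted p under 0.05. In Con alone, 8 against 4 weeks, 0 of 9 were called, beside 0%, with no member at an unadjusted p under 0.05; Bdnf there differed by 0.15 (adjusted p = 0.703).

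Ntf3, the gene of neurotrophin-3, which supports sensory and some central neurons, passed the test in no comparison. It was highest in CAC at 6 weeks, with 3.15, 2.70, 2.15, 2.90 and 2.41 TPM, against 2.20, 1.77, 1.24, 1.34 and 2.76 TPM in NCAC and 2.15, 1.64, 1.25, 1.38 and 2.28 TPM in Con. Of the 5 CAC libraries 4 lay above every Con library, and the groups overlapped at their edges. The log2 difference at 6 weeks was 0.43 against Con (95% interval 0.13 to 0.73, limma adjusted p = 0.126) and 0.38 against NCAC (0.08 to 0.67, adjusted p = 0.0886). At 8 weeks the 3 arms averaged 2.30 ± 0.423 TPM in CAC, 2.11 ± 0.260 in NCAC and 2.26 ± 0.519 in Con. Ntf3 rested on 17 to 79 estimated reads per library, and the smallest difference that could have been detected was not computed.

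Ntrk2, whose product TrkB is carried by neurons and, in truncated form, by astrocytes, rose in CAC against NCAC at 6 weeks. It had 178, 160, 202, 181 and 180 TPM in CAC libraries, against 162, 138, 152, 134 and 139 TPM in NCAC libraries and 163, 153, 150, 175 and 152 TPM in Con libraries. Of the 5 CAC libraries 4 lay above every NCAC library, and the remaining pair overlapped by less than 2 TPM (160.1 in CAC, 161.9 in NCAC). The means were 180 ± 14.7 TPM in CAC, 145 ± 11.7 TPM in NCAC and 159 ± 10.7 TPM in Con (SD, n = 5 each). The log2 difference to NCAC was 0.31 (SE 0.07, limma adjusted p = 0.00669), and that to Con was 0.18 (SE 0.07, adjusted p = 0.216), which did not pass. NCAC stood lowest of the 12 groups, with a difference to Con of -0.13 that did not pass either (SE 0.07, adjusted p = 0.662). The Ntrk2 call held in each of 10 fits without a library of these groups and in 10 other settings, at 0.22 to 0.35.

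Of 8 astrocyte markers, 1 rose and 1 fell in CAC against NCAC at 6 weeks (Aldoc by 0.23 and Aqp4 by -0.43), beside 9.65% of all genes called. No marker was at 0. The summed level of these markers was 2236 to 2736 TPM in CAC, 2136 to 2291 TPM in NCAC and 2234 to 2405 TPM in Con, and their part in the Ntrk2 difference was not tested. At 8 weeks Ntrk2 averaged 177 ± 12.7 TPM in CAC, 161 ± 13.7 TPM in NCAC and 165 ± 7.26 TPM in Con. The log2 differences of CAC at 8 weeks were 0.14 to NCAC (95% interval -0.00 to 0.27, limma adjusted p = 0.236; without the 3 libraries that stood apart 0.17, adjusted p = 0.0294) and 0.10 to Con (-0.03 to 0.24, adjusted p = 0.389). At 2 and 4 weeks the CAC differences lay between -0.04 and 0.05 and none passed.

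Ntrk3, the receptor gene of neurotrophin-3, passed the test in no comparison. At 6 weeks it averaged 18.2 ± 2.99 TPM in CAC, 14.7 ± 2.64 TPM in NCAC and 17.4 ± 2.58 TPM in Con (SD, n = 5 each). Of the 5 CAC libraries 3 lay above every NCAC library, and the log2 difference was 0.30 (SE 0.11, limma adjusted p = 0.0700). Without CAC replicate 2 or NCAC replicate 1 that difference was 0.39 and 0.38 and the adjusted p was 0.0171 and 0.0212, which would pass. At 8 weeks it averaged 18.2 ± 1.87 TPM in CAC, 18.6 ± 3.00 TPM in NCAC and 18.8 ± 1.42 TPM in Con, with log2 differences of CAC of -0.05 to Con (95% interval -0.26 to 0.15) and -0.02 to NCAC (-0.23 to 0.18).

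**Figure D2:**
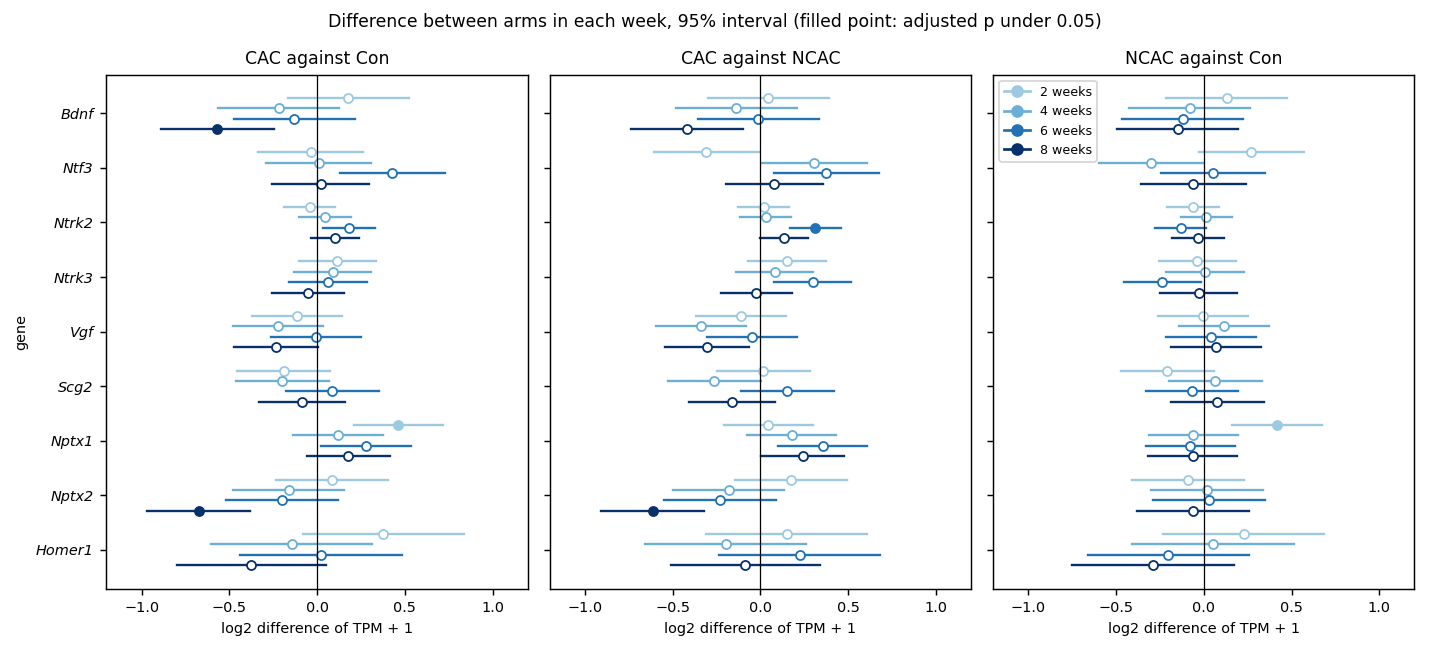
Difference in log2(TPM + 1) between arms (horizontal axis) for each gene (vertical axis) and week (shade), with 95% intervals; filled points passed an adjusted p under 0.05. The filled points are Bdnf, Nptx2 and Nptx1 in CAC against Con, Ntrk2 and Nptx2 in CAC against NCAC, and Nptx1 in NCAC against Con.

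Vgf encodes a neuropeptide precursor that neurotrophins induce, and its peptides are known to affect energy balance. It passed the test in no single week. At 8 weeks it had 106, 142 and 172 TPM (lowest, median and highest of 7) in CAC libraries, against 168, 143, 168, 191 and 169 TPM in NCAC libraries and 164, 156, 176, 180 and 125 TPM in Con libraries. Of the 7 CAC libraries 4 lay below every NCAC library and 2 below every Con library. The log2 differences were -0.31 to NCAC (SE 0.12, limma adjusted p = 0.115) and -0.23 to Con (SE 0.12, adjusted p = 0.231). That to NCAC passed without the 3 or the 8 libraries that stood apart (-0.32 and -0.34, adjusted p = 0.0380 and 0.0346) and with the immediate early gene score as a term (-0.37, adjusted p = 0.0491).

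The lowest Vgf mean was that of CAC at 4 weeks. Its libraries had 83.6, 141, 170, 132 and 155 TPM in CAC, against 165, 169, 167, 162 and 177 TPM in NCAC and 156, 166, 146, 157 and 151 TPM in Con. Of the 5 CAC libraries 4 lay below every NCAC library, and the lowest was replicate 1, the library that stood apart by its low striatum markers. The log2 difference to NCAC at 4 weeks was -0.34 (SE 0.13, limma adjusted p = 0.183), and -0.17 without that library (adjusted p = 0.709).

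Scg2, the secretogranin II gene, whose product is stored in dense-core vesicles and cut into secretoneurin, passed the test in no comparison. At 8 weeks it had 247, 287 and 308 TPM (lowest, median and highest of 7) in CAC libraries, against 352, 336, 329, 280 and 281 TPM in NCAC libraries and 302, 348, 307, 308 and 235 TPM in Con libraries. Of the 7 CAC libraries 3 lay below every NCAC library, and the CAC libraries lay within the range of the Con libraries. The log2 differences of CAC were -0.09 to Con (95% interval -0.33 to 0.16) and -0.16 to NCAC (-0.41 to 0.08). The highest Scg2 mean, 334 ± 103 TPM in Con at 2 weeks, included 516 TPM in replicate 5, the library with high thalamus and pituitary markers, while the other 4 libraries of that group lay between 266 and 317 TPM.

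Nptx2, a secreted pentraxin that gathers AMPA receptors at synapses onto inhibitory neurons, fell in CAC neocortex at 8 weeks against both other arms. It had 18.1, 27.6 and 30.3 TPM (lowest, median and highest of 7) in CAC libraries, against 39, 38.8, 32.9, 49.9 and 41.4 TPM in NCAC libraries and 42.9, 46.2, 47.8, 49.5 and 27.2 TPM in Con libraries. All 7 CAC libraries lay below all 5 NCAC libraries. The CAC and Con libraries overlapped through Con replicate 5 at 27.2 TPM, and the other 4 Con libraries lay above every CAC library. The means were 26.2 ± 4.79 TPM in CAC (SD, n = 7), 40.4 ± 6.17 TPM in NCAC and 42.7 ± 9.01 TPM in Con (n = 5 each).

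The log2 difference of Nptx2 at 8 weeks was -0.68 to Con (SE 0.15, limma adjusted p = 0.00184) and -0.61 to NCAC (SE 0.15, adjusted p = 0.00624). Both calls held in each of 12 fits without a library of the groups compared and in 10 other settings, at -0.83 to -0.59 against Con and -0.68 to -0.53 against NCAC. Without the 3 libraries that stood apart in markers of other tissues they were -0.71 and -0.65. Summed excitatory neuron markers overlapped between the arms at 8 weeks, at 4619 to 5204 TPM in CAC, 4671 to 5569 TPM in NCAC and 4612 to 5113 TPM in Con, and with their score as a term the differences were -0.71 and -0.64. The inhibitory neuron marker Sst, a member of a list of 8 such markers, fell in CAC at 8 weeks, with 750 ± 128 TPM in CAC, 966 ± 109 TPM in NCAC and 907 ± 52.6 TPM in Con (limma adjusted p = 0.00973 to NCAC and 0.0454 to Con). Sst was singled out after its values were seen. Its list had 1 of 8 members called in each of these comparisons, beside 8.6% of all genes to Con and 6.02% to NCAC. The median log2 difference of the list was 0.036 to Con and 0.05 to NCAC. Summed with Sst, the list stood at 1520 to 1814 TPM in CAC, 1761 to 2018 TPM in NCAC and 1678 to 1908 TPM in Con, with no defining marker at 0. Its part in the Nptx2 difference was not tested.

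Glial markers moved beside the Nptx2 and Bdnf results at 8 weeks. Of all genes, 8.6% were called in CAC against Con and 6.02% in CAC against NCAC in that week. In CAC against Con at 8 weeks, 3 of 8 mature oligodendrocyte markers fell, with Opalin, a myelin membrane protein gene, at 10.5 ± 4.89 TPM in CAC and 24.5 ± 3.57 TPM in Con (SD; -1.22, limma adjusted p = 8.10e-05). Of 6 microglia markers 3 fell, with the purinergic receptor gene P2ry12 at 38.8 ± 8.54 TPM in CAC and 59.04 ± 2.45 TPM in Con (-0.62, adjusted p = 0.000101). Of 8 astrocyte markers 1 rose and 2 fell, with the water channel gene Aqp4 at 47.8 ± 11.98 TPM in CAC and 77.0 ± 6.92 TPM in Con (-0.71, adjusted p = 0.000113). The other fallen marker was Slc1a3 (-0.17, limma adjusted p = 0.0443). The risen marker was Aldoc, at 811 ± 80.2 TPM in CAC and 699 ± 67.5 TPM in Con (0.21, limma adjusted p = 0.0291). Against NCAC at 8 weeks 4 oligodendrocyte, 2 microglia and 1 astrocyte marker fell and 2 astrocyte markers rose. Summed oligodendrocyte markers were 1525 to 2286 TPM in CAC, 2079 to 2610 TPM in NCAC and 1948 to 2367 TPM in Con. Summed microglia markers were 272 to 372 TPM in CAC, 327 to 379 TPM in NCAC and 383 to 562 TPM in Con, and summed astrocyte markers were 2162 to 2530 TPM in CAC, 2033 to 2377 TPM in NCAC and 2245 to 2882 TPM in Con. No marker of these lists was at 0, and their part in the Nptx2 and Bdnf differences was not tested.

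In the earlier weeks Nptx2 averaged 39.5 ± 8.09, 32.04 ± 5.56 and 33.3 ± 7.46 TPM in CAC at 2, 4 and 6 weeks, 35.1 ± 7.85, 36.4 ± 4.90 and 38.99 ± 6.17 TPM in NCAC, and 37.1 ± 6.89, 35.8 ± 3.93 and 37.96 ± 4.85 TPM in Con (SD, n = 5 each). None of the differences of CAC passed in those weeks, from 0.09 at 2 weeks to -0.20 at 6 weeks against Con. The CAC to Con difference moved by -0.76 between 2 and 8 weeks (SE 0.22, limma adjusted p = 0.0595), just above the threshold, and by -0.48 between 6 and 8 weeks (SE 0.22, adjusted p = 1.00). NCAC differed from Con by -0.06 at 8 weeks (95% interval -0.38 to 0.26). The step up from CAC at 8 weeks, the lowest of the 12 groups, was the one step between neighbouring groups that exceeded their SD.

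Nptx1, the pentraxin relative of Nptx2 with a like role at excitatory synapses, was higher rather than lower in CAC by mean level in all 4 weeks. Its CAC libraries at 6 weeks had 235, 204, 233, 226 and 239 TPM, against 161, 185, 196, 182 and 166 TPM in NCAC libraries and 216, 159, 181, 203 and 182 TPM in Con libraries. All 5 CAC libraries lay above all 5 NCAC libraries, and the log2 difference was 0.35 (SE 0.13), with a limma adjusted p of 0.0620 that did not pass. It passed in a fit of only the groups compared (adjusted p = 0.0141) and without CAC replicate 2 (0.39, adjusted p = 0.0377). At 8 weeks Nptx1 averaged 233 ± 23.9 TPM in CAC, 197 ± 28.6 TPM in NCAC and 205 ± 15.9 TPM in Con, with log2 differences of CAC of 0.24 to NCAC (95% interval 0.01 to 0.48, adjusted p = 0.224) and 0.18 to Con (-0.06 to 0.41, adjusted p = 0.386). That to NCAC passed without the 8 libraries that stood apart (0.32, adjusted p = 0.0363) and with the excitatory neuron marker score as a term (0.21, adjusted p = 0.0418).

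At 2 weeks Nptx1 rose in both tumour arms against Con. It had 224, 163, 211, 169 and 245 TPM in CAC libraries and 235, 189, 200, 143 and 216 TPM in NCAC libraries, against 116, 163, 180, 188 and 99.5 TPM in Con libraries. The groups overlapped, and 2 Con libraries lay below every tumour library. The log2 differences were 0.46 in CAC against Con (SE 0.13, limma adjusted p = 0.0282) and 0.42 in NCAC against Con (SE 0.13, adjusted p = 0.0339). Those 2 Con libraries also had the lowest summed excitatory neuron markers of the group, 3697 TPM in replicate 1 and 2807 TPM in replicate 5, against 4270 to 5279 TPM in the other 3. Replicate 5 is also the library with high thalamus and pituitary markers. The excitatory marker list as a whole had 4 of 8 members called higher in CAC against Con at 2 weeks, beside 4.28% of all genes. In NCAC against Con it had 4 of 8, beside 8.71%. These markers summed to 4455 to 5948 TPM in CAC, 4194 to 5455 TPM in NCAC and 2807 to 5279 TPM in Con, with no defining marker at 0. With the score of these markers as a term the Nptx1 differences were 0.01 (adjusted p = 0.985) in CAC and 0.02 (adjusted p = 0.908) in NCAC. Without Con replicate 5 they were 0.33 (adjusted p = 0.122) and 0.28 (adjusted p = 0.132), without Con replicate 1 they were 0.38 (0.108) and 0.34 (0.0971), and the call was also lost without CAC replicate 1, 3 or 5 and without NCAC replicate 1, 2 or 5.

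**Figure D3:**
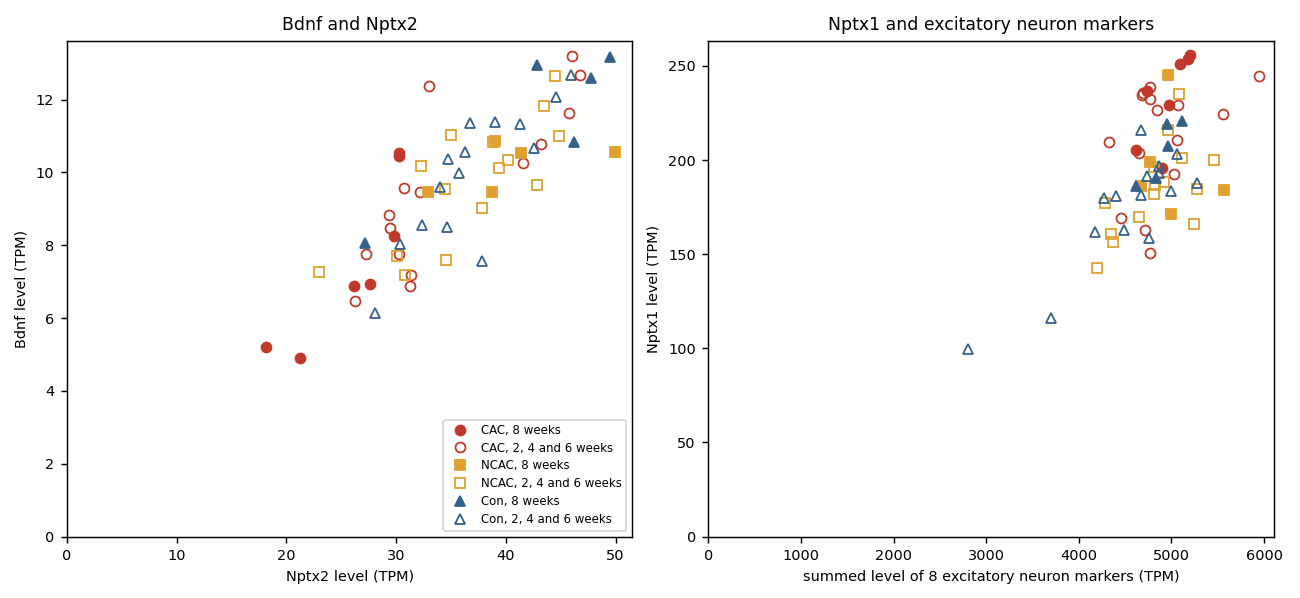
Left, Bdnf level against Nptx2 level in TPM in each of 62 libraries; right, Nptx1 level against the summed level of 8 excitatory neuron markers in TPM, with 8-week libraries as filled symbols. The 2 CAC libraries at 8 weeks with the lowest Nptx2 (18.1 and 21.2 TPM) also have the lowest Bdnf (5.195 and 4.91 TPM), and the 2 Con libraries with the lowest markers have the lowest Nptx1 (99.5 and 116 TPM).

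Homer1, a scaffold that ties group I metabotropic glutamate receptors to other postsynaptic proteins and whose short form is made after activity, passed the test in no comparison. At 8 weeks it had 32.98, 40.5 and 65.6 TPM (lowest, median and highest of 7) in CAC libraries, against 52.2, 44.5, 45.01, 48.5 and 50.6 TPM in NCAC libraries and 62.8, 55.6, 70.8, 69.1 and 41.6 TPM in Con libraries. Of the 7 CAC libraries 4 lay below every Con library and 2 Con libraries lay above every CAC library. The log2 difference of CAC was -0.38 to Con (95% interval -0.80 to 0.05, limma adjusted p = 0.291) and -0.09 to NCAC (-0.51 to 0.34, adjusted p = 0.848). Its spread between libraries was wide in every arm, with 26.6 to 82.5 TPM among the 5 Con libraries at 2 weeks alone, so the interval does not set a tight limit on a difference.

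Averaged over the 4 weeks, more genes of the table passed, and the member counts are read against that. In CAC against Con 2 of 9 were called, beside 23.8% of all genes: Nptx1 rose by 0.26 (SE 0.06, limma adjusted p = 0.00187) and Nptx2 fell by 0.24 (SE 0.08, adjusted p = 0.0212). In CAC against NCAC 4 of 9 were called, beside 30.2% of all genes. Nptx1 and Ntrk2 rose, by 0.20 (SE 0.06, adjusted p = 0.0111) and 0.12 (SE 0.04, adjusted p = 0.00754), and Nptx2 and Vgf fell, by 0.21 (SE 0.08, adjusted p = 0.0326) and 0.20 (SE 0.06, adjusted p = 0.0131). Without CAC replicate 1 at 4 weeks the Vgf mean difference was -0.16 (adjusted p = 0.0282). In NCAC against Con 0 of 9 were called, beside 0%, with no member at an unadjusted p under 0.05. In week 4 the CAC libraries were sequenced on lane 3 and the Con libraries on lane 4, so these arms and lanes cannot be told apart in that week. Of the NCAC libraries in week 4, 4 were on lane 3 and 1 on lane 4, so comparisons with NCAC there are unbalanced by lane. Arms at 2, 6 and 8 weeks each shared a lane. With lane as a term the Nptx2 mean difference to Con was -0.20 and no longer passed (adjusted p = 0.225), while that of Nptx1 was called. Only NCAC at 4 weeks had libraries on both lanes, so the lane term was set by its 1 library on lane 4 against the other 4. These fits therefore cannot decide what part lane had in either difference. With the excitatory neuron marker score as a term the Nptx1 mean difference to Con was 0.11 (adjusted p = 0.0465). Under TMM scaling the mean differences to NCAC were 0.07 for Ntrk2 (adjusted p = 0.101) and 0.15 for Nptx1 (adjusted p = 0.0725), and neither was called. All genes called in the mean of CAC against NCAC were 3706 higher and 674 lower, and 1581 and 1744 under TMM; against Con they were 2577 and 867, and 1570 and 1369 under TMM.

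Genes around the members were taken from lists that share some genes (Pcsk1 and Sorcs3). Of all genes tested, 8.6% were called in CAC against Con at 8 weeks, and 6.02% and 9.65% in CAC against NCAC at 8 and 6 weeks. The list counts below are read beside these shares, and a count near its share does not set a list apart from other genes. Of 12 tested genes for other neurotrophin ligands, receptors and processing enzymes, 0 were called in CAC against Con at 8 weeks, and 1 was called in CAC against NCAC, where Furin, a protease that cuts pro-neurotrophins, rose by 0.26 (11.96 ± 1.18 TPM in CAC, 9.78 ± 0.598 TPM in NCAC, limma adjusted p = 0.0129). Of 22 Trk adaptors and signal proteins, 1 rose and 2 fell in CAC against Con at 8 weeks. The risen gene was Pik3r1, a regulatory subunit of PI3-kinase, at 55.3 ± 3.31 TPM in CAC and 46.6 ± 1.59 TPM in Con (0.24, adjusted p = 0.0185). The fallen genes were the small GTPase gene Hras at 76.1 ± 4.64 TPM in CAC and 89.9 ± 4.85 TPM in Con (-0.24, adjusted p = 0.00583) and the neuronal Trk adaptor gene Shc3 at 42.98 ± 9.83 TPM in CAC and 57.3 ± 4.44 TPM in Con (-0.43, adjusted p = 0.0483). In CAC against NCAC at 8 weeks 3 of the 22 rose, among them Pik3r1, the kinase gene Mapk3 and the CREB coactivator gene Crtc1, and 1 fell, which was Hras (-0.24, adjusted p = 0.00784). At 6 weeks Ptpn11 and Frs2 were among the genes that rose against NCAC (by 0.26 and 0.25), and Hras again fell, by 0.21.

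Of 21 other genes listed as late-response genes, 2 fell and none rose in CAC against Con at 8 weeks, beside 8.6% of all genes called. Inhba, the activin A subunit gene, averaged 2.85 ± 0.729 TPM in CAC against 5.52 ± 1.15 TPM in Con (-0.76, SE 0.18, limma adjusted p = 0.00475), and Mfap3l averaged 33.9 ± 3.75 TPM in CAC and 40.6 ± 2.99 TPM in Con (-0.26, adjusted p = 0.0484). The median difference of the 21 was -0.162, against 0.015 over all genes. In CAC against NCAC at 8 weeks 1 of the 21 fell, Cort, a neuropeptide gene of inhibitory neurons, at 8.56 ± 1.87 TPM in CAC and 13.5 ± 1.69 TPM in NCAC (-0.61, adjusted p = 0.0196), and at 6 weeks 1 rose, the cyclooxygenase gene Ptgs2, at 8.29 ± 2.60 TPM in CAC and 4.38 ± 2.35 TPM in NCAC (0.85, adjusted p = 0.0429). Of 17 immediate early genes 0 were called in CAC against Con at 8 weeks, with a median difference of 0.028, and their summed level was 646 to 1403 TPM in CAC, 410 to 1287 TPM in NCAC and 551 to 1303 TPM in Con. Against NCAC at 8 weeks 1 of the 17 rose, Klf4, at 11.2 ± 4.35 TPM in CAC and 5.92 ± 1.15 TPM in NCAC (0.74, adjusted p = 0.0271), and the median of the 17 was 0.531, against 0.052 over all genes. With the immediate early gene score as a term the 8-week differences of CAC to Con were -0.69 for Nptx2 and -0.58 for Bdnf, both called.

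Of 11 granin and dense-core vesicle genes, 1 fell in CAC against Con at 8 weeks, beside 8.6% of all genes, and 0 were called against NCAC, beside 6.02%. The fallen gene was Scg3, at 297 ± 11.3 TPM in CAC and 324 ± 6.26 TPM in Con (-0.13, limma adjusted p = 0.0138). Of 14 partners of pentraxins and Homer proteins, 1 fell in CAC against Con at 8 weeks, Adam17, a protease that cuts the pentraxin receptor in cultured rodent neurons, at 6.64 ± 0.864 TPM in CAC and 8.23 ± 0.672 TPM in Con (-0.28, adjusted p = 0.0244). None of the 4 AMPA receptor subunit genes in that list passed in that comparison. At 2 weeks, where excitatory markers were higher in both tumour arms, 2 of 12, 2 of 22, 2 of 21, 2 of 11 and 0 of 14 genes of these lists in the order above were called higher in CAC against Con, and none lower. Of all genes 4.28% were called there. Among the called list genes were Sort1, Slitrk5, Camk4, Rasgrp1, Lingo1, Pcsk2 and Scg5, with log2 differences of 0.25 to 0.42 whose dependence on the excitatory markers was not tested.

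**Figure D4:**
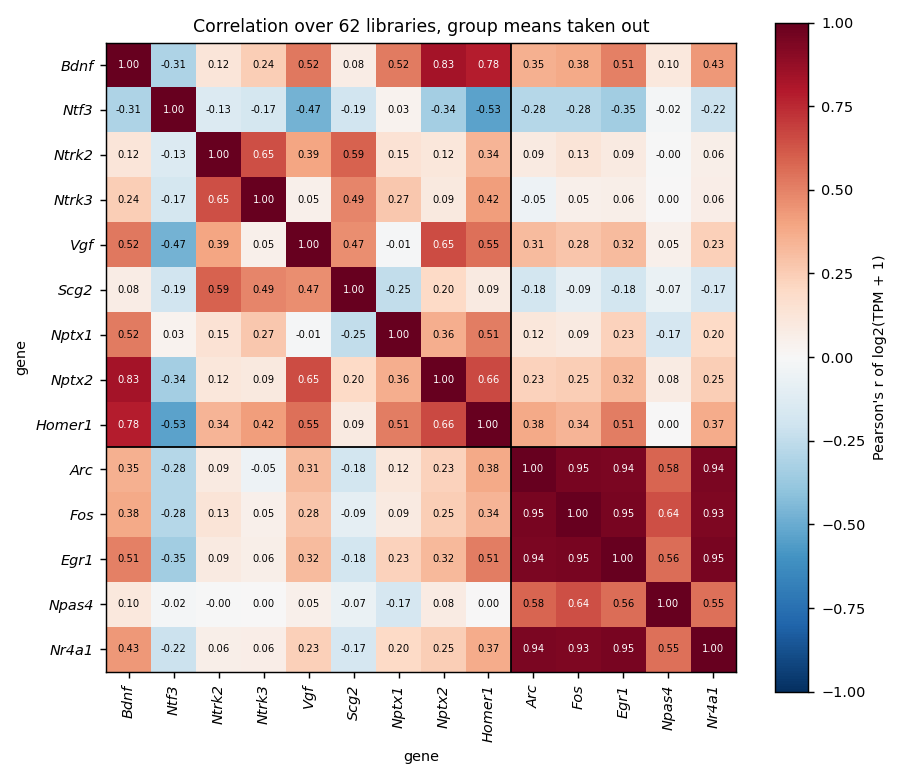
Pearson's r of log2(TPM + 1) between the 9 genes and 5 immediate early genes over 62 libraries after group means were taken out (colour and number). Among the members the highest values are those of Bdnf with Nptx2 (0.83) and of Bdnf with Homer1 (0.78), and the values of these 3 genes with Arc, Fos and Npas4 are lower. This does not hold for every immediate early gene: Egr3, which is not shown, had r of 0.91 with Homer1.

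After group means were taken out, Bdnf and Nptx2 had a Pearson's r of 0.83 over 62 libraries (Spearman's rho 0.83), and 0.82 without the 2 libraries with the most extreme Bdnf. It was 0.83 on lane 3 (24 libraries) and 0.84 on lane 4 (38 libraries). Bdnf and Homer1 had r of 0.78 (rho 0.77), and Nptx2 and Homer1 had r of 0.66 (rho 0.63). Nptx2 and Vgf had r of 0.65 (rho 0.63), at 0.47 on lane 3 and 0.83 on lane 4, and Ntrk2 and Scg2 had r of 0.59. Vgf had r of 0.55 with Homer1 and 0.52 with Bdnf. The receptor genes Ntrk2 and Ntrk3 had r of 0.65 with each other (rho 0.69), at 0.43 on lane 3 and 0.85 on lane 4, while Bdnf and its receptor gene Ntrk2 had r of 0.12. Ntf3 and Homer1 had r of -0.53 (rho -0.54), at -0.33 on lane 3 and -0.74 on lane 4. Lane 3 held all libraries of 2 weeks and most tumour libraries of 4 weeks, and lane 4 held the rest. The values by lane therefore also differ in week, and lane and week cannot be told apart in them. Con replicate 5 at 2 weeks and CAC replicate 1 at 4 weeks, which stood apart in markers, were on lane 3. Genes of a library share its dissection and cell composition, so these values are a description and carry no test.

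Arc, Fos, Egr1 and Nr4a1 had r of 0.93 to 0.95 with each other within groups, and 0.55 to 0.64 with Npas4. Bdnf had r of 0.51 with Egr1, 0.35 with Arc and 0.10 with Npas4, and Nptx2 had 0.32, 0.23 and 0.08 with the same genes. Genes were ranked for each member by r over the 62 libraries, and those named are among its 3 highest. For Bdnf they were Nptx2 (0.85), Fmnl1 (0.81) and Cx3cl1 (0.77), and for Nptx2 they were Bdnf, Dok5 (0.77) and Cx3cl1 (0.73). For Homer1 they were Etv5 (0.90), the immediate early gene Egr3 (0.90, and 0.91 within groups) and Spred1 (0.85). For Nptx1 they were Fezf2 (0.91), a transcription factor gene of deep-layer neurons, Pip4k2c (0.91) and Dkk3 (0.91). Stk24 (0.88) was among the genes most like Ntrk2, and Ntrk3 was most like Zc3h13, Tanc2 and Usp34 (0.87 each). Scg2 was most like Acly (0.81), Gad2 (0.80) and Peg10 (0.79). Vgf, with Cbarp (0.70), Fam222a (0.66) and Rgs20 (0.66), and Ntf3, with Krt77 (0.72), Nov (0.68) and Fam19a2 (0.67), had no gene above 0.73.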

How the data were processed

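The authors deposited a table of TPM values for 47643 genes and 62 neocortex libraries. Extraction used Trizol, and stranded mRNA libraries were read on an Illumina instrument, per the labels' protocols. That text also names LLC cells and 3 weeks, which match no group here, so how far it applies is uncertain. The submitters' processing notes name mm10; for the aligner, quantification tool, annotation and strand setting, the sources used here give nothing. TPM keeps no depth, so the smallest steps in each library served to estimate it, and 86.1% of 204105 low values came out as whole reads within 0.05. This gave 44.89 to 50.69 M reads per library (median 48.2 M). No pair of libraries was identical, and none of 131 replicate pairs agreed within sampling noise.

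The 14494 genes whose mean over all libraries reached 1 TPM were transformed to log2(TPM + 1) and fitted with limma 3.58.1 in R 4.3.3 (statmod 1.5.0), with a variance trend, in 1 model of 12 group means with 50 residual degrees of freedom. P-values were adjusted by Benjamini-Hochberg over all tested genes in each of 18 comparisons, with a call at 0.05; the limma script was tested on simulated data. Python 3.11.15 (pandas 2.3.3, numpy 2.4.6) was used for summaries.

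The members and gene lists were chosen with earlier results of these data known. Named were all 9 members, up to 4 called genes per list and comparison with the lowest p, and the 3 genes with an established symbol most correlated with each member; Sst, Drd1, Ttr and Slc17a7 were named as markers, and the 5 immediate early genes correlated with the members as examples, after values were seen. Gene models came from GENCODE vM21 (GRCm38). Alternatives were a pseudocount of 0.1, no filter, TMM scaling, robust moderation, a replicate block, lane as a term, a fit of only the groups compared, leaving out each library, and leaving out 3 or 8 libraries that stood apart in markers of other tissues; scores of excitatory neuron markers and of immediate early genes as terms were added after the data were seen. Some genes that this rule names are not reported here.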

Additional observations from a re-analysis of the deposited data

Results flagged for a closer look

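Of 108 groups of a member (9 genes in 12 groups), 4 held a library far from the others by Dixon's test at the 95% level, which chance alone flags in about 5% of groups. Nptx2 was at 41.59 TPM in CAC replicate 3 at 4 weeks, against 27.26 to 31.25 TPM in the other 4 libraries of that group. Scg2 was at 515.8 TPM and Vgf at 186.5 TPM in Con replicate 5 at 2 weeks, against 266.1 to 316.5 TPM and 144.3 to 152.1 TPM in the other 4 libraries. That library also held 3759 TPM of summed hypothalamus and pituitary markers, and the part of these in both values was not tested. Scg2 was at 247.6 TPM in Con replicate 5 at 4 weeks, below the 306.4 to 326.8 TPM of the other 4 libraries.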

How the results depend on the processing

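No member value changed direction with a call in 4419 recalculated values. The count of called members stayed within 1.5 times its main value in 445 of 491 settings. With only the groups compared, CAC against Con gave 0 called at 2 weeks and 1 at 8 weeks (Nptx2 remained, Bdnf did not), CAC against NCAC at 6 weeks gave 2, and NCAC against Con at 2 weeks gave 0. Leaving out 3 or 8 libraries that stood apart gave 0 and 0 in CAC against Con at 2 weeks, 2 and 2 in CAC against NCAC at 6 weeks and 3 and 3 at 8 weeks (adding Ntrk2 and Vgf without the 3, and Nptx1 and Vgf without the 8). Leaving out the 3 gave 0 in NCAC against Con at 2 weeks, and leaving out the 8 gave 1 for the change of CAC minus Con, 8 against 2 weeks. No filter gave 0 in NCAC against Con at 2 weeks, lane as a term gave 1 in the mean of CAC against Con, and TMM scaling gave 2 in the mean of CAC against NCAC (Nptx1 and Ntrk2 lost theirs). The lane term was set by 1 NCAC library at 4 weeks, so it cannot decide the part of lane. The excitatory marker score as a term gave 0 in CAC against Con and in NCAC against Con at 2 weeks, 2 in CAC against NCAC at 6 weeks and 3 at 8 weeks (adding Nptx1 and Bdnf). The immediate early gene score gave 3 in CAC against NCAC at 8 weeks (adding Bdnf and Vgf), 0 in NCAC against Con at 2 weeks and 1 for the change at 8 against 2 weeks. The cause of these moves was not tested. Leaving out each library gave 0 to 1 called in CAC against Con at 2 weeks, 1 to 2 at 8 weeks and 2 to 3 in the mean, 0 to 1 in CAC against NCAC at 4 weeks, 1 to 3 at 6 weeks, 1 to 1 at 8 weeks and 3 to 5 in the mean, 0 to 1 in NCAC against Con at 2 weeks, 0 to 2 for the change at 8 against 2 weeks, and 0 in every other comparison. The mean Nptx2 difference to NCAC lost its call in 9 of 42 such fits, with adjusted p-values up to 0.0603 (limma). In none of 12 comparisons did all same-numbered libraries of 2 arms deviate together at r over 0.1. At most 3 of 5 libraries correlated best with their own number. At 4 weeks all 5 pairs were positive in CAC against NCAC (0.023 to 0.217) and in NCAC against Con (0.009 to 0.181). Every other comparison held a negative pair. A rule that asks for every pair cannot exclude a weaker or partial pairing by number. With the replicate block the count of called members moved in 0 comparisons, and the 8-week differences of CAC to Con were -0.62 for Nptx2 and -0.57 for Bdnf. Ntf3 rests on low read numbers.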

Other observations

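Single libraries were low or high in many of the 9 genes at once. Con replicate 5 at 8 weeks had the lowest value of its group for 8 of the 9 genes, with Ntf3 as the exception. NCAC replicate 4 had the lowest value of its group for 6 of the 9 genes at 2, at 4 and at 6 weeks. These are 3 separate libraries, and whether replicate numbers link libraries across weeks was not tested. CAC replicate 3 at 6 weeks had the highest value for 6 of the 9 genes. Without Con replicate 5 at 8 weeks the change of the CAC to Con difference between 2 and 8 weeks was -0.91 for Nptx2 (limma adjusted p = 0.0130) and -0.86 for Bdnf (adjusted p = 0.0397), both of which pass, whereas neither did with it (0.0595 and 0.0993). That library was singled out for its low member values, so leaving it out must enlarge both changes. The 2 passes are therefore no test of a change.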
